A study of Homo sapiens with 6 samples.

Results

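Integrins are receptors made of 1 alpha and 1 beta subunit that hold a cell to its matrix, and the focal adhesion is the protein plaque that ties their tails to actin. This account follows 45 genes of that system, 17 integrin subunits and 28 plaque proteins, among the 57688 rows of a gene table from WM3248, a human primary melanoma line. The genes were taken by symbol, and all 45 were found. The cells had been transfected with an siRNA against PPARGC1A (siPGC1a, 3 libraries) or with a commercial negative control siRNA (siNC, 3 libraries). Each siRNA was used at 30 nM with a lipid reagent, and RNA was taken 48 h later. A single siRNA against the target and a single cell line were used, and whether replicate libraries are separate cultures is not stated. P-values therefore measure only the spread between these libraries, which may be technical. Levels are FPKM, a read level scaled by library depth and gene length. Comparisons and sums between genes therefore depend on the length taken for each gene.

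Alpha subunits decide much of what an integrin binds. ITGA1, ITGA2, ITGA10 and ITGA11 make collagen receptors with ITGB1, while ITGA3, ITGA6 and ITGA7 make laminin receptors. ITGA5 with ITGB1 is the classic fibronectin receptor, ITGA4 binds fibronectin and VCAM1, and ITGAV joins several beta subunits in receptors for ligands that carry an RGD motif, such as vitronectin. Beta tails recruit talin and kindlin, which switch the receptor on, and then vinculin, alpha-actinin, paxillin and the kinases FAK and SRC.

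An siRNA can also lower other transcripts whose 3' UTR pairs with its seed, so the 3' UTR letters of the alpha subunits are shown before their levels. Neither siRNA sequence is in the sources used here, so it is not known whether the word below pairs with either seed. The 6-base word ACACCT, picked in an earlier look at these same data because genes lower in siPGC1a often carry it, was searched on the transcript strand of 1 principal GENCODE 29 transcript per gene. It stood in the 3' UTR of 5 of the 10 alpha subunits that were lower in siPGC1a, at 6 sites. The sites of ITGA1, ITGA3, ITGA11 and ITGAV are given 5′ to 3′ in 26 bases of GRCh38, a later build than the hg19 named for the table, with the word in capitals.
ITGA1, chr5:52953645-52953670, plus strand: ggaagatatcACACCTttgtatgtgc
ITGA3, chr17:50089380-50089405, plus strand: tcaggcacatACACCTcgtcaagagc
ITGA3, chr17:50089635-50089660, plus strand: caatgtggtgACACCTccccctttca
ITGA11, chr15:68302837-68302862, minus strand: ggagactgggACACCTttaacacaga
ITGAV, chr2:186680234-186680259, plus strand: ttaaagaaaaACACCTaaaatttgaa
ITGA4, ITGA5, ITGA6, ITGA7 and ITGA10 were also lower and held no ACACCT in the transcript searched. Over all tested genes with a 3' UTR it occurred in 44.9% of 2389 lower genes, 20.3% of 2923 higher genes and 1564 of 5400 genes not past the threshold. The median 3' UTR of these sets had 1453, 952 and 1122 bases, so length moved with the share. Because the word was picked for being frequent in lower genes, a higher share there is built in. Of the members, 8 of 19 lower, 0 of 7 higher and 4 of 16 not past held it. The part of such pairing in the results was not tested.

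The libraries held 25070000 to 26350000 reads, recovered from the steps of the FPKM values. Along the leading principal component, with 74.4% of the variance, the siPGC1a libraries lay on one side and the siNC libraries on the other. PPARGC1A stood at 0.4, 0.354 and 0.413 FPKM in siPGC1a, against 0.932, 1.04 and 0.947 FPKM in siNC. It rested on 96 to 117 reads per library in siPGC1a and 261 to 291 in siNC, and its fall passed the test (limma adjusted p = 0.000234). Of the defining melanoma markers, S100B (924 FPKM in siPGC1a, 802 in siNC), DCT (253 in siPGC1a, 394 in siNC) and SOX10 (230.0 in siPGC1a, 246 in siNC) were abundant in both groups. MLANA was at 1.02 FPKM in siPGC1a and 1.86 in siNC, and TYRP1 at 0.907 in siPGC1a and 1.08 in siNC. MITF was at 5.52 FPKM in siPGC1a and 7.24 in siNC, and PMEL at 3.77 in siPGC1a and 5.29 in siNC. TYR was at 1.13 FPKM in siPGC1a and 1.44 in siNC. By the same test DCT, MITF, PMEL and MLANA were lower in siPGC1a and S100B higher, while SOX10 and TYR did not pass.

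Of the 45 genes, 42 had a mean of at least 1 FPKM over the 6 libraries and were tested among 12020 genes with limma, on the log2(FPKM + 1) scale, taking a Benjamini-Hochberg adjusted p under 0.05 as the threshold. In siPGC1a 7 of the 42 were higher, 19 were lower and 16 did not pass. Over all tested genes 25.6% were higher and 22.5% lower, 48.1% in all. The median difference of the members was -0.07 on that scale, beside 0.01 for all tested genes. It was -0.12 with quantile normalization, and -0.03 with a filter at 5 FPKM, where all tested genes were at 0.05. The groups did not overlap for 29 members, with 22 lower and 7 higher, where 57.2% of all tested genes did not overlap, 27.4% lower and 29.8% higher.

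The members split by role. Of 11 alpha subunits 10 fell, 0 rose and 1 did not pass, with a median difference of -0.31. The 5 beta subunits tested gave 2 that fell, 1 that rose and 2 that did not pass, with a median of -0.03. Among 26 plaque proteins 6 rose, 7 fell and 13 did not pass, shares near those of all tested genes. In a bulk library, fewer cells that express a gene and less RNA per cell cannot be told apart.

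**Figure D1:**
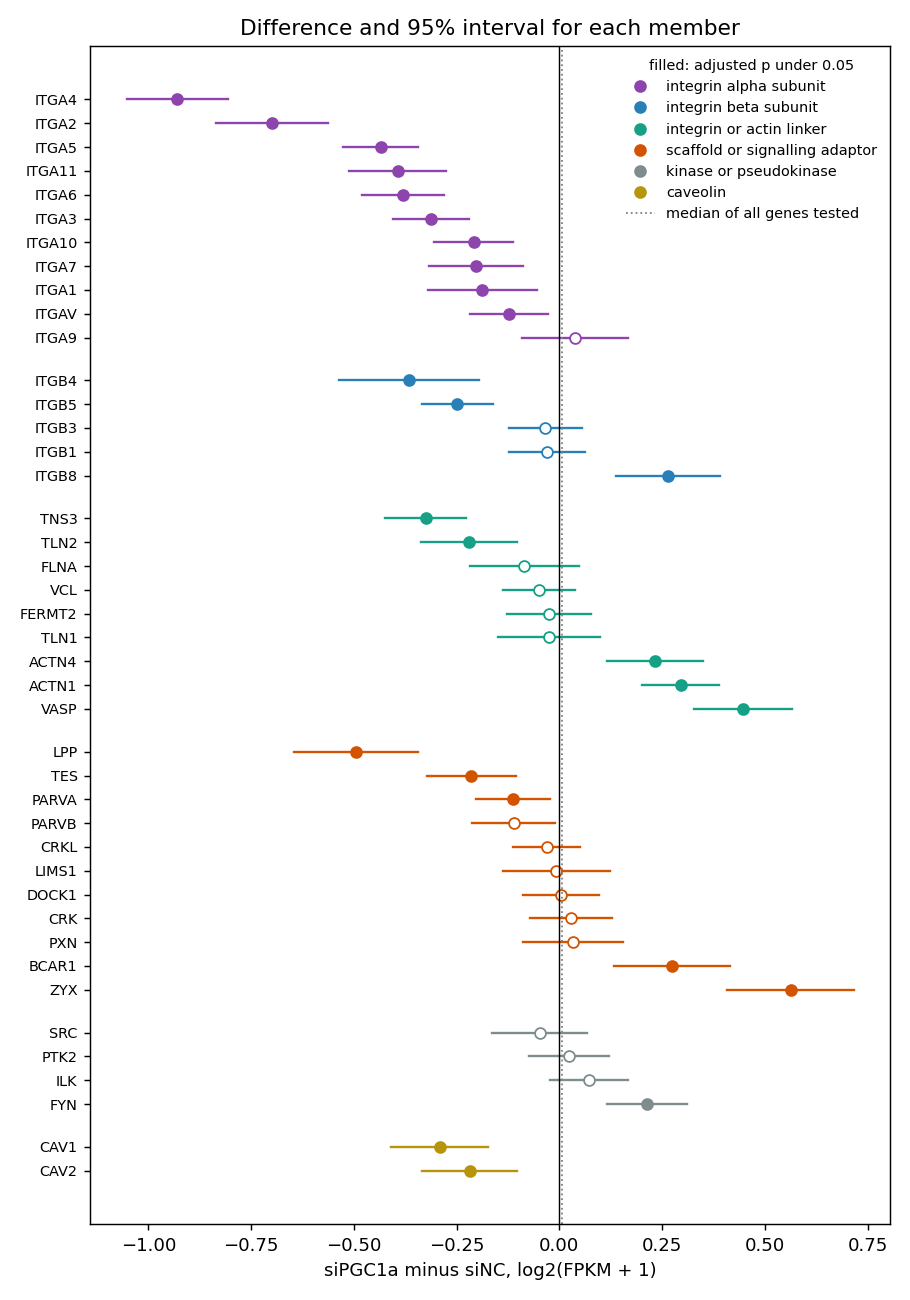
Difference in log2(FPKM + 1), siPGC1a minus siNC (x axis), for the 42 tested members (y axis), coloured by role, with 95% intervals of the limma fit. Filled points passed the threshold. All alpha subunits except ITGA9 lie left of 0, ITGB1 and ITGB3 straddle it, and ZYX and VASP lie farthest right.

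ITGA4 had the largest fall of all members. It stood at 55.2, 48.9 and 54.0 FPKM in siPGC1a, against 107.3, 96.9 and 99.3 FPKM in siNC. Every siPGC1a library was thus well below every siNC library, and the means were 52.7 ± 3.33 FPKM in siPGC1a and 101.2 ± 5.45 FPKM in siNC (SD, n = 3 each), a ratio of 0.520. On the log2(FPKM + 1) scale the difference was -0.93 (SE 0.055, limma adjusted p = 2.99e-06). ITGA4 held between 9683 and 22348 reads per library, so counting error is small beside the gap. It was also the second most abundant alpha subunit in siNC, next to ITGA6, with values that overlapped those of ITGA6. In siPGC1a all its values lay below those of ITGA6 and ITGA5.

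The fibronectin receptor subunit ITGA5 fell to 64.0, 66.5 and 61.6 FPKM in siPGC1a, against 84.5, 87.8 and 88.4 FPKM in siNC. The groups were far apart, with a ratio of 0.737 and a difference of -0.43 (SE 0.041, limma adjusted p = 3.52e-05).

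All 4 collagen-binding alpha subunits fell, and each was at a low level. ITGA2 stood at 4.46, 3.78 and 3.95 FPKM in siPGC1a, against 7.63, 7.01 and 7.01 FPKM in siNC. Its ratio of means was 0.564 and its difference -0.70 (SE 0.061, limma adjusted p = 2.29e-05), with no overlap between groups. ITGA11 had 3.52, 3.60 and 3.20 FPKM in siPGC1a, against 4.72, 4.99 and 4.77 FPKM in siNC. This was a ratio of 0.713 and a difference of -0.39 (SE 0.052, limma adjusted p = 0.00027). ITGA10 had 6.39, 6.73 and 6.45 FPKM in siPGC1a, against 7.68, 7.58 and 7.82 FPKM in siNC, a ratio of 0.849 (limma adjusted p = 0.0032). ITGA1 had 2.81, 2.38 and 2.51 FPKM in siPGC1a, against 3.18, 2.96 and 3.04 FPKM in siNC, a ratio of 0.839 (limma adjusted p = 0.0256). Its groups did not overlap but came close, with siPGC1a replicate 1 just under the lowest siNC library. The ITGA1 call was lost when siPGC1a replicate 2 (limma adjusted p = 0.0797) or 3 (0.0633), or siNC replicate 1 (0.0794) or 3 (0.0636), was left out, with no filter (0.0875) and with quantile normalization (0.0733), in a range of 0.0132 to 0.0875 over the limma settings tried. Summed over the 4 genes, the collagen-binding subunits had 16.6 ± 0.54 FPKM in siPGC1a and 22.8 ± 0.36 FPKM in siNC.

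All 3 laminin-binding alpha subunits fell as well. ITGA6, the most abundant alpha subunit in both groups, had 83.4, 79.1 and 82.8 FPKM in siPGC1a, against 112.0, 101.4 and 106.9 FPKM in siNC. The groups did not overlap, with a ratio of 0.766 and a difference of -0.38 (SE 0.045, limma adjusted p = 0.00013). ITGA3 had 37.1, 37.6 and 35.0 FPKM in siPGC1a, against 45.0, 45.2 and 46.6 FPKM in siNC, which gave a ratio of 0.802 (limma adjusted p = 0.000253). ITGA7, far lower, had 2.76, 2.84 and 2.57 FPKM in siPGC1a, against 3.23, 3.35 and 3.27 FPKM in siNC, a ratio of 0.829 (limma adjusted p = 0.00919). Together these subunits summed to 121.0 ± 1.97 FPKM in siPGC1a and 155.7 ± 5.22 FPKM in siNC.

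ITGAV showed the smallest called difference of the alpha subunits. It had 32.0, 30.0 and 29.7 FPKM in siPGC1a, against 34.1, 33.2 and 32.7 FPKM in siNC, and the groups stood apart by a narrow margin. Its ratio was 0.917 and its difference -0.12 (SE 0.042, limma adjusted p = 0.0367). This call was lost when siPGC1a replicate 2 (limma adjusted p = 0.0948) or 3 (0.0882), or siNC replicate 1 (0.111), 2 (0.082) or 3 (0.0712), was left out, with no filter (0.0764) and with sample weights (0.0689), in a range of 0.00781 to 0.111. ITGA9, a receptor subunit for tenascin-C among other ligands, was the alpha subunit that did not pass. It had 3.15, 2.69 and 2.83 FPKM in siPGC1a, against 2.88, 2.73 and 2.76 FPKM in siNC, with overlapping groups and a 95% interval of the difference from -0.09 to 0.17 (limma adjusted p = 0.618).

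**Figure D2:**
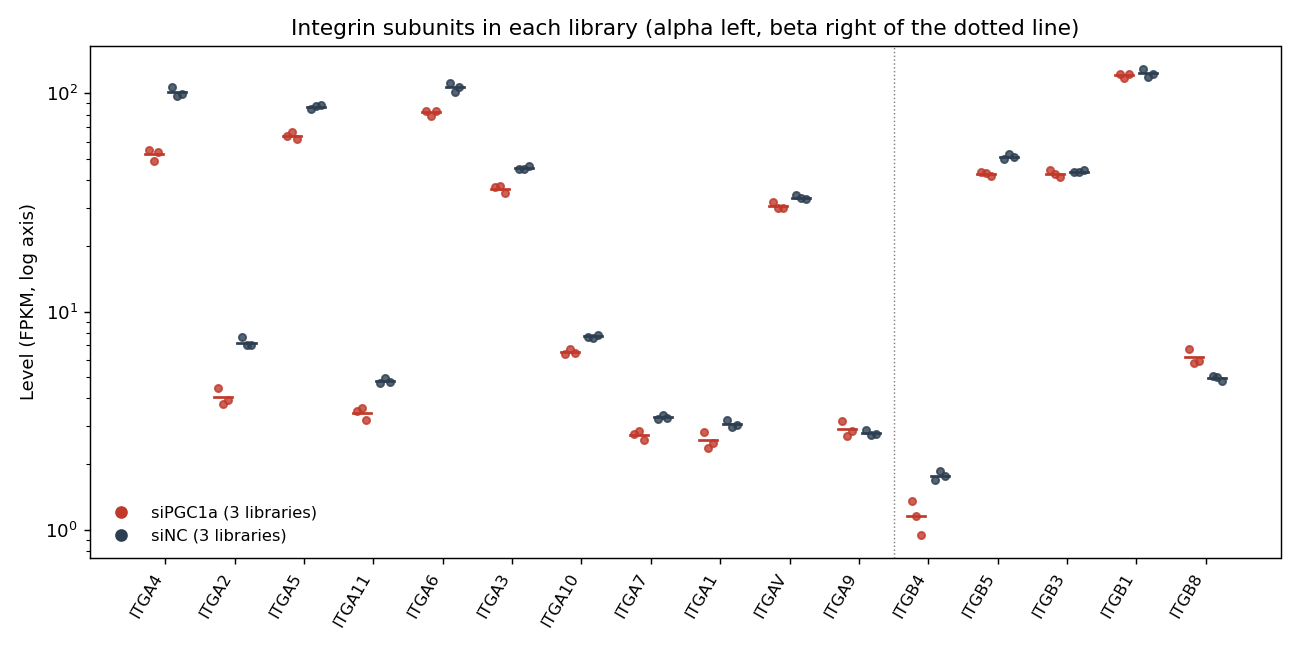
Level of each tested integrin subunit (FPKM, log axis) in the 3 siPGC1a libraries (left of each pair) and the 3 siNC libraries (right), with bars at the means. ITGA4 shows the widest gap, at 52.7 FPKM in siPGC1a and 101.2 FPKM in siNC, while the points of ITGA9, ITGB3 and ITGB1 overlap.

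ITGB1, the partner of most alpha subunits, was the most abundant integrin transcript and was not called. It had 122.9, 117.8 and 122.6 FPKM in siPGC1a, against 129.1, 118.6 and 123.4 FPKM in siNC. The groups overlapped, and the 95% interval of the difference ran from -0.12 to 0.06 (limma adjusted p = 0.577), which leaves out a fall as large as the median alpha subunit showed. ITGB3, which pairs with ITGAV, had 44.4, 42.6 and 41.3 FPKM in siPGC1a, against 43.5, 43.5 and 44.4 FPKM in siNC, again with overlap and an interval of -0.12 to 0.06 (limma adjusted p = 0.508). In the annotation used, 51.6% of the ITGB3 exon length is shared with another gene of the same strand that was listed at 0, so its level is less certain.

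The other beta subunits moved apart from each other. ITGB5, a further ITGAV partner, had 43.5, 43.3 and 41.9 FPKM in siPGC1a, against 49.8, 52.7 and 51.0 FPKM in siNC, a ratio of 0.839 with no overlap (difference -0.25, SE 0.039, limma adjusted p = 0.000664). ITGB4, the laminin receptor subunit of hemidesmosomes, which pairs with ITGA6, had 1.35, 1.16 and 0.949 FPKM in siPGC1a, against 1.70, 1.86 and 1.76 FPKM in siNC (ratio 0.652, limma adjusted p = 0.00333). It rested on 168 to 322 reads per library and was the tested member closest above the 1 FPKM filter. ITGB8, which with ITGAV binds latent TGF-beta, was the integrin subunit that rose, at 6.73, 5.84 and 5.91 FPKM in siPGC1a, against 5.07, 5.00 and 4.79 FPKM in siNC. The groups did not overlap (ratio 1.24, difference 0.26, SE 0.057, limma adjusted p = 0.00399). ITGB6, the epithelial ITGAV partner, was at 0.014 to 0.061 FPKM in siPGC1a and at 0.027 to 0.052 FPKM in siNC, at most 7 reads per library, and was not tested.

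Partner subunits were then set against each other within each library. Of 16 known pairs among the members, 15 had both subunits measured. The alpha to beta FPKM ratio was lower in every siPGC1a library than in every siNC library for 12 pairs, higher for 1, and overlapping for 2. Each of the 13 non-overlapping pairs has an exact two-sided permutation p of 0.1, the smallest that 3 against 3 can give, or 0.115 adjusted over the 15 pairs, so this test cannot reach the threshold for a ratio with these groups. As background, the ratio of each tested gene to ITGB1 was lower without overlap for 21.8% of 12009 genes, and 10 of 11 ITGB1 partners were among them, while 31.5% of genes and 0 partners were higher.

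The ITGA4 to ITGB1 ratio was 0.449, 0.415 and 0.440 in siPGC1a, against 0.832, 0.818 and 0.805 in siNC. That is a change of -46.9%, or -0.91 in log2 (SE 0.036). For ITGA2 to ITGB1 the ratios were 0.0363, 0.0321 and 0.0323 in siPGC1a, against 0.0591, 0.0591 and 0.0568 in siNC, a change of -42.6%. ITGA6 to ITGB1 had the tightest values, with 0.679, 0.671 and 0.675 in siPGC1a, against 0.868, 0.855 and 0.867 in siNC, a change of -21.8%. The ratios of ITGA5, ITGA3 and ITGA11 to ITGB1 changed by -24.8%, -18.2% and -27.3%. All 11 alpha subunits can pair with ITGB1, and their summed level was 294.8, 284.1 and 284.5 FPKM in siPGC1a, against 412.2, 393.2 and 402.7 FPKM in siNC. Per ITGB1 this sum averaged 2.38 ± 0.049 in siPGC1a and 3.26 ± 0.061 in siNC (SD, n = 3 each). ITGB1 differed little, so the ratios to it largely restate the alpha subunit differences above. Some of these alpha subunits also pair with other beta subunits, and RNA levels do not count receptors. Within the sum ITGA4 made up 18.3% ± 0.95 in siPGC1a and 25.1% ± 0.79 in siNC.

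The 4 ITGAV ratios did not all change in 1 direction. ITGAV to ITGB8 was 4.75, 5.13 and 5.02 in siPGC1a, against 6.73, 6.64 and 6.82 in siNC, a change of -26.2%, where 62.5% of tested genes had a lower, non-overlapping ratio to ITGB8 and 2.85% a higher one. ITGAV to ITGB5 was 0.734, 0.692 and 0.709 in siPGC1a, against 0.685, 0.630 and 0.641 in siNC, a change of 9.2%, where 62.8% of tested genes had a higher ratio to ITGB5 and 7.66% a lower one. ITGAV to ITGB3 changed by -6.2%, with 22.5% of tested genes lower and 31.9% higher per ITGB3. The ratio of ITGA6 to ITGB4 overlapped between groups, at 61.6, 68.3 and 87.2 in siPGC1a, against 66.1, 54.7 and 60.9 in siNC, where 83.1% of tested genes were higher and 0.5% lower per ITGB4 without overlap.

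**Figure D3:**
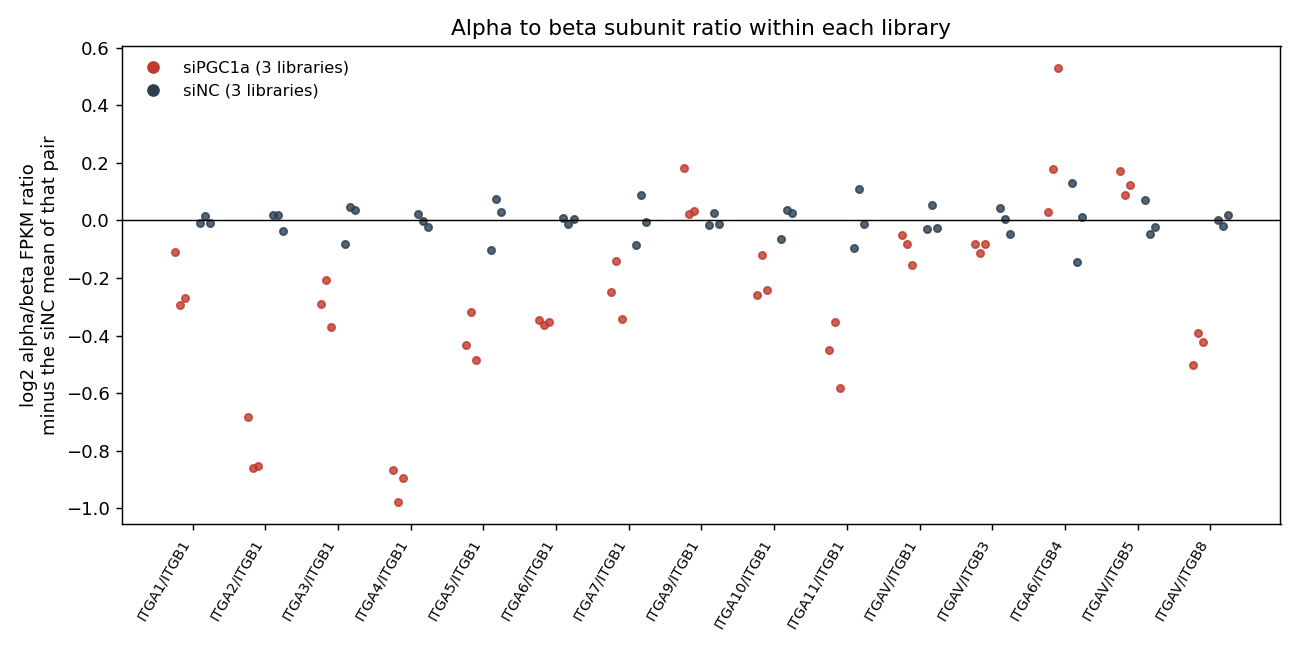
Alpha to beta subunit FPKM ratio of the 15 partner pairs in each library, as log2 and relative to the siNC mean of the pair (y axis), siPGC1a left and siNC right. The ITGA4/ITGB1 and ITGA2/ITGB1 points of siPGC1a lie lowest, and the 4 ITGAV pairs lie on both sides of 0.

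Of the plaque proteins, the linkers between integrins and actin gave 3 that rose, 2 that fell and 4 that did not pass of 9 tested. Of the 11 scaffolds and adaptors 2 rose, 3 fell and 6 did not pass, and of the 4 kinases tested 1 rose and 3 did not pass. Beside these small counts, 25.6% of all tested genes were higher and 22.5% lower. ZYX, zyxin, which gathers at stressed actin fibres, had 35.5, 37.4 and 31.1 FPKM in siPGC1a, against 21.6, 24.5 and 23.3 FPKM in siNC. This was the largest rise of a member, by 50.03% in mean FPKM (difference 0.56, SE 0.069, limma adjusted p = 0.000161), with no overlap. VASP, which speeds actin filament growth and binds zyxin, had 16.05, 16.5 and 16.2 FPKM in siPGC1a, against 10.7, 12.1 and 12.3 FPKM in siNC, a 1.39-fold rise (difference 0.45, SE 0.053, limma adjusted p = 0.000139).

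Both alpha-actinins, which crosslink actin filaments, rose too. ACTN1 had 71.2, 73.4 and 67.4 FPKM in siPGC1a, against 56.1, 57.7 and 58.4 FPKM in siNC (1.23-fold, limma adjusted p = 0.000381). ACTN4, the most abundant plaque transcript over all 6 libraries, had 194.7, 197.8 and 173.2 FPKM in siPGC1a, against 155.2, 164.1 and 160.9 FPKM in siNC (1.18-fold, limma adjusted p = 0.00491). FLNA, filamin A, which crosslinks actin and binds beta tails, was about as abundant as ACTN4 in siNC, and less so in siPGC1a. It was not called, at 158.4, 159.9 and 137.7 FPKM in siPGC1a, against 153.4, 167.3 and 162.4 FPKM in siNC (limma adjusted p = 0.264). With quantile normalization FLNA was called lower (adjusted p = 0.0377, in a range of 0.0377 to 0.795). In siPGC1a replicate 3, ZYX, ACTN1, ACTN4 and FLNA were each at the lowest level of that group, and the 3 that rose stayed called without this library.

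The talins, kindlin and vinculin, which form the early link from a beta tail to actin, were not called apart from TLN2. TLN1 averaged 41.6 ± 3.03 FPKM in siPGC1a and 42.3 ± 1.64 FPKM in siNC (SD, n = 3 each). FERMT2 (kindlin-2) averaged 12.5 ± 0.534 FPKM in siPGC1a and 12.7 ± 0.361 FPKM in siNC, and VCL (vinculin) 15.1 ± 0.21 FPKM in siPGC1a and 15.7 ± 0.248 FPKM in siNC (SD, n = 3 each). None of these 3 passed, although the VCL groups did not overlap, with limma adjusted p of 0.739, 0.674 and 0.32 and 95% intervals within -0.15 and 0.10. The less abundant talin TLN2 fell to 2.26 FPKM in siPGC1a, against 2.80 FPKM in siNC (limma adjusted p = 0.00649). TNS3, a tensin that binds beta tails and actin, had 36.8, 35.7 and 33.4 FPKM in siPGC1a, against 43.9, 45.2 and 44.3 FPKM in siNC, a clear gap with a ratio of 0.794 (difference -0.33, SE 0.044, limma adjusted p = 0.00029). TNS1, its relative, was just outside the 1 FPKM filter with a mean of 0.9, at 0.686 to 0.894 FPKM in siPGC1a and 0.948 to 1.11 FPKM in siNC, and was not tested.

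The zyxin family did not move as 1 block. LPP, a zyxin relative of cell contacts and adhesions, had 3.94, 3.22 and 3.32 FPKM in siPGC1a, against 5.63, 5.26 and 5.06 FPKM in siNC. It fell to a ratio of 0.656 (difference -0.50, SE 0.067, limma adjusted p = 0.000303), in the opposite direction to ZYX. Its long 3' UTR of 16192 bases held ACACCT at 6 sites, and that of ZYX, with 429 bases, at 0. Of the tested plaque members, 3 of 7 lower, 0 of 6 higher and 4 of 13 not past held the word. Site number depends on length, and a link between these sites and the levels was not tested. TES, testin, another LIM protein that binds zyxin, fell to 9.83 FPKM in siPGC1a, against 11.6 FPKM in siNC (limma adjusted p = 0.00508).

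**Figure D4:**
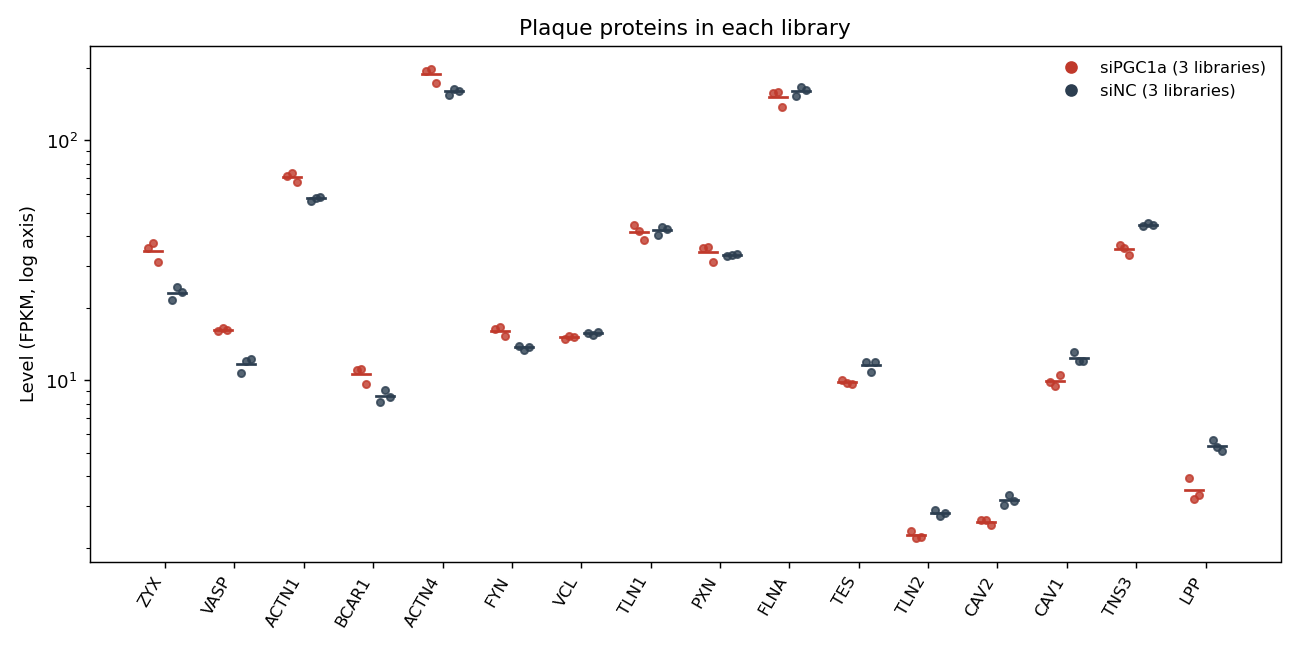
Level of 16 plaque members (FPKM, log axis) in the 3 siPGC1a libraries (left of each pair) and the 3 siNC libraries (right), with bars at the means, from members that rose on the left to members that fell on the right. ZYX is at 34.7 FPKM in siPGC1a and 23.1 in siNC, and LPP at 3.49 in siPGC1a and 5.32 in siNC.

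Of the kinases, FYN, a SRC-family kinase, rose to 16.1 ± 0.67 FPKM in siPGC1a, against 13.7 ± 0.254 FPKM in siNC (SD, n = 3 each, limma adjusted p = 0.00317). PTK2, which encodes FAK, averaged 9.93 FPKM in siPGC1a and 9.76 in siNC, and SRC itself 12.4 FPKM in siPGC1a and 12.8 in siNC, and neither passed (limma adjusted p = 0.692 and 0.464). PTK2B, the FAK relative PYK2, had a mean of 0.852 FPKM and was not tested, at 0.708 to 0.796 FPKM in siPGC1a and 0.895 to 1.034 FPKM in siNC. ILK, the pseudokinase that anchors parvin and PINCH to beta tails, averaged 43.3 FPKM in siPGC1a and 41.1 FPKM in siNC (limma adjusted p = 0.182). In the annotation used, 68.1% of the ILK exon length lies opposite TAF10, so its level depends on how strand was counted, which no source used here states.

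The ILK partners showed small differences or none that passed. PARVA (alpha-parvin) fell to 15.9 FPKM in siPGC1a, against 17.3 FPKM in siNC, a ratio of 0.921 (limma adjusted p = 0.0406). That call was lost when siPGC1a replicate 1 (limma adjusted p = 0.0768) or 3 (0.0927), or siNC replicate 1 (0.0903), 2 (0.0684) or 3 (0.148), was left out, and with a replicate block (0.0506), in a range of 0.0104 to 0.148. PARVB (beta-parvin) averaged 12.5 FPKM in siPGC1a and 13.6 FPKM in siNC without overlap, and did not pass (limma adjusted p = 0.068). With quantile normalization (limma adjusted p = 0.0277), equal library sums (0.0425) or sample weights (0.0336) it was called lower, in a range of 0.0277 to 0.209. LIMS1 (PINCH1) averaged 3.505 FPKM in siPGC1a and 3.525 FPKM in siNC (limma adjusted p = 0.926). It is uncertain because of the near-identical copies LIMS3 and LIMS4, which were listed at 0.

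BCAR1, the SRC substrate p130Cas, rose to 10.6 ± 0.87 FPKM in siPGC1a, against 8.60 ± 0.487 FPKM in siNC (SD, n = 3 each, 1.24-fold, limma adjusted p = 0.00551). PXN, CRK, CRKL and DOCK1, which act with p130Cas in adhesion signalling, were not called. PXN (paxillin) averaged 34.2 FPKM in siPGC1a and 33.4 in siNC, and CRK, an adaptor that binds both, 40.3 in siPGC1a and 39.5 in siNC (limma adjusted p = 0.643 and 0.634). CRKL, its close relative, averaged 34.8 FPKM in siPGC1a and 35.6 in siNC, and DOCK1, which activates RAC1, 15.7 in siPGC1a and 15.6 in siNC (limma adjusted p = 0.505 and 0.947). The 95% intervals of these 4 lay between -0.112 and 0.155 on the log2(FPKM + 1) scale. Both caveolins, membrane proteins that integrins signal through, fell. CAV1 had 9.97 ± 0.532 FPKM in siPGC1a and 12.4 ± 0.64 FPKM in siNC, and CAV2 2.58 ± 0.068 FPKM in siPGC1a and 3.17 ± 0.154 FPKM in siNC (SD, n = 3 each, limma adjusted p = 0.00157 and 0.00686).

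Other genes of the adhesion system were read from the same fit, in which 25.6% of all tested genes were higher and 22.5% lower. The matrix and other ligands that integrins bind gave 1 higher, 21 lower and 7 not past of 29 tested, with a median difference of -0.23. LTBP1, which holds latent TGF-beta in the matrix, fell to 5.08 FPKM in siPGC1a, against 9.08 in siNC, and COL1A2, a collagen I chain, to 1.56 FPKM in siPGC1a, against 3.04 in siNC (limma adjusted p = 5.49e-06 and 1.61e-05). LAMC1, the common laminin gamma chain, was the ligand that rose, at 292.9 ± 9.96 FPKM in siPGC1a and 268.2 ± 2.55 FPKM in siNC (SD, n = 3 each, limma adjusted p = 0.0165). Of 25 tested plaque proteins outside the 45, 2 rose, 11 fell and 12 did not pass. SORBS2 and PEAK1 fell to ratios of 0.591 and 0.599, and CTTN (cortactin) and KANK2 each rose 1.17-fold (limma adjusted p = 1.26e-05, 8.6e-05, 0.00138 and 0.00341).

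Of 16 tested integrin activity regulators and membrane partners 2 rose, 4 fell and 10 did not pass. The shares over all tested genes were 25.6% higher and 22.5% lower. SDC4, a syndecan that acts with ITGA5 in adhesion to fibronectin, fell to 34.2 FPKM in siPGC1a, against 49.5 FPKM in siNC, and SDC2 to 21.1 FPKM in siPGC1a, against 29.1 in siNC (limma adjusted p = 1.17e-05 and 0.000121). The tetraspanin CD82 rose to 13.7 FPKM in siPGC1a, against 9.58 FPKM in siNC, and the small GTPase RAP1A to 9.97 FPKM in siPGC1a, against 8.85 in siNC (limma adjusted p = 0.000256 and 0.0177). Of 20 adhesion signalling genes 4 rose, 7 fell and 9 did not pass. RHOA, the GTPase that drives stress fibres, rose to 173.4 ± 3.59 FPKM in siPGC1a, against 118.3 ± 2.69 FPKM in siNC, and PAK1 rose 1.21-fold (SD, n = 3 each, limma adjusted p = 4.97e-06 and 0.00136). GRB2 and CDC42 fell to ratios of 0.808 and 0.825 (limma adjusted p = 0.000288 and 0.00351).

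Markers of other cell types were read as well, and not all of them were lower in siPGC1a. For scale, 25.6% of all tested genes were higher and 22.5% lower. All endothelial and leukocyte markers analysed were below the 1 FPKM filter and were not tested. The 6 fibroblast markers summed to 33.3 to 36.2 FPKM in siPGC1a and 39.9 to 40.7 FPKM in siNC, with 2 of 3 tested markers lower. Most of that sum was THY1, at 26.4 FPKM in siPGC1a and 28.5 in siNC, which did not pass (limma adjusted p = 0.0819). DCN was at 0.0517 FPKM in siPGC1a and 0.13 in siNC. The 4 endothelial markers summed to 0.82 to 0.91 FPKM in siPGC1a and 1.08 to 1.2 FPKM in siNC, led by TEK. The 5 leukocyte markers summed to 1.7 to 2.49 FPKM in siPGC1a and 1.6 to 1.97 FPKM in siNC, with PTPRC at 0 in every library. CD14 averaged 0.958 FPKM in siPGC1a and 0.993 in siNC, and CD68 1.07 FPKM in siPGC1a and 0.743 in siNC, with overlap for both. The 5 keratinocyte markers summed to 20.7 to 25.9 FPKM in siPGC1a and 20.6 to 21.5 FPKM in siNC, with KRT1 at 0. Nearly all of that was KRT10, which did not pass (limma adjusted p = 0.204). Among melanoma markers 1 rose, 4 fell and 2 did not pass of 7 tested. The part of these shifts in the integrin results was not tested.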

How the data were processed

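The deposited values were FPKM, computed by the authors per gene and per library, with 1 column per library and 0 columns left unused. The build hg19 and the tools STAR, Picard, featureCounts and DESeq2 appear, with no role, per the submitters' processing notes, and the strand setting is not given in the sources used here. Per the labels' protocols, libraries came from a stranded poly(A) kit, read as single reads of 50 bases. Depth was recovered with GENCODE 29 exon lengths (55001 symbols matched). Of low values (20 reads or fewer), 90.6 to 91.9% per library were whole to within 0.1 read, where chance gives 20.0%. Replicates differed beyond sampling noise (chi-square per degree of freedom 2.03 to 6.26), so none is a duplicate.

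The 12020 genes at a mean of 1 FPKM or more, PPARGC1A included whatever its level, were compared on log2(FPKM + 1), siPGC1a minus siNC, by limma-trend (limma 3.58.1, R 4.3.3), two-sided and without a replicate block, a scale that understates the change of low genes. The fit was also run on simulated data with far fewer changed genes than were called here. No result above rests on that run. Ratios of partner subunits used FPKM without a pseudocount and an exact permutation test over the 6 values. Per-library values are given for integrin subunits, for called plaque members with an absolute difference of at least 0.3 and for the 3 most abundant plaque members. From each pathway list, up to 2 called rises and 2 called falls are named. The members and lists were chosen with earlier results of these data known. TGFB1 and PECAM1 were not analysed here. The letters of 1 word site are not reported here. Alternatives were other pseudocounts, filters, scalings, sample weights, a replicate block and leaving out each library.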

Additional observations from a re-analysis of the deposited data

How the results depend on the processing

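The limma fit was repeated under 15 other settings, and 23 of the 26 called members kept direction and call in every one that tested them. The exceptions were ITGA1, ITGAV and PARVA, and 0 called members changed sign. A filter at 5 FPKM left 33 members, 12 of them called lower, because 7 called members were no longer tested, and the 19 still tested kept their call. That filter gave 1607 genes called lower of 7272. Members that had not passed changed sign with quantile normalization (PTK2 -0.006, PXN -0.032, LIMS1 0.024, CRK -0.027, DOCK1 -0.042), with sample weights (LIMS1 0.004), with median-ratio scaling (DOCK1 -0.006) and with equal library sums (DOCK1 -0.019). The cause was not tested. Leaving out 1 library, their differences ran from -0.01 to 0.075 for ITGA9, -0.059 to 0.001 for ITGB1, -0.001 to 0.037 for PTK2, -0.001 to 0.098 for PXN, -0.071 to 0.032 for TLN1, -0.051 to 0.035 for LIMS1 and -0.013 to 0.03 for DOCK1.

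With a replicate block 25 members and 6079 genes were called, against 26 and 5782 without it, and PARVA lost its call (adjusted p = 0.0506). Deviations of same-numbered libraries correlated at 0.077, 0.261 and -0.058. In siPGC1a, replicates 1 and 2 correlated best with their own number, and replicate 3 with siNC replicate 1 (0.254). With 3 libraries per group, these values cannot show whether the replicate numbers pair the libraries. Of 15 pairs, 13 to 14 had non-overlapping ratios when 1 library was left out. Leaving out a library cannot make groups that stand apart overlap, so this count could not fall and tests nothing. Depth limits ITGB6, with 2 to 7 reads per library, while PTK2B and TNS1 were left out by the 1 FPKM filter.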

Other observations

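Of 9 integrin genes outside the 45, 8 were below the filter and 1 was tested and did not pass. ITGB7, the other known partner of ITGA4, was at 0.079, 0.089 and 0.086 FPKM in siPGC1a, against 0.221, 0.184 and 0.124 FPKM in siNC. ITGAM, an alpha subunit known from myeloid cells, was at 0.867, 0.705 and 0.756 FPKM in siPGC1a, against 0.439, 0.577 and 0.501 FPKM in siNC, and its known partner ITGB2 at 0.159 to 0.191 FPKM in siPGC1a and 0.182 to 0.294 FPKM in siNC. These genes were not tested, and those named were chosen after their values were seen.

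A second word picked in the same earlier look, GTCTTC, stood in the 3' UTR of 38.8% of all lower genes, 24.5% of higher genes and 31.2% of genes not past. As the word came from these same data, the shares are no separate test. Of the members 6 of 19 lower, 3 of 7 higher and 8 of 16 not past held it. ITGA4 was the 1 alpha subunit of 10 lower ones that did.

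RefSeq promoters, 250 bases before to 50 after the start in GRCh38.p14, were matched for 36 members. An AP-1-like motif was searched as TGANTCA, with any base in the middle, a form that reads the same on both strands. It stood in 3 of them (8.3%), beside 7.76% of all 27305 promoters. The TEAD motif GGAATG on either strand stood in 5 (13.9%), beside 14.05%, and ITGA5 held both. The CArG box, bound by serum response factor, stood in 2 (5.6%), beside 1.29%: FLNA, which did not pass, and ITGB6, which was not tested. The TGANTCA sites are shown 5′ to 3′ with the motif in capitals, because ITGA5 fell and ACTN4 and BCAR1 rose. The middle base is G in ITGA5 and BCAR1 and A in ACTN4, so the ACTN4 site is a looser match.
ITGA5, chr12:54419256-54419282, minus strand: ctccccgcgtTGAGTCAttcgcctctg
ACTN4, chr19:38647399-38647417, plus strand: taTGAATCAttcatgatct
BCAR1, chr16:75268055-75268081, minus strand: taggacggagTGAGTCAtcctgggatc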
